A study of Mus musculus with 3 samples.

Results

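The genes described here encode the nuclear subunits of the mitochondrial respiratory chain and of ATP synthase in mouse liver, measured in 3 mRNA libraries of an ischemia-reperfusion study. They were taken by gene symbol: symbols that begin with Nduf, Uqcr, Atp5 or Cox4 to Cox8, together with Sdha, Sdhb, Sdhc and Sdhd. The Ndufaf symbols, which name complex I assembly factors, were left out. The files held 85 such symbols among 23361 genes. Of these, 80 had an FPKM (fragments per kilobase of transcript, scaled to the mapped reads of the library) of at least 1 in at least 1 library, as did 10792 genes in all. By role, 36 of the 80 encode subunits of complex I, 4 of complex II, 8 of complex III, 13 of complex IV and 15 of complex V. The remaining 4 symbols, Atp5s, Atp5sl, Cox7a2l and Ndufa4l2, fall under the naming rule but are not structural subunits of these complexes. The 80 are called the subunit genes below.

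All 3 groups were labelled as male C57BL/6J mice of 8 to 10 weeks, without transgene, and all had been fasted and opened by a midline laparotomy under chloral hydrate. The Sham group had no vascular occlusion. In the WI (warm ischemia) group the vessels and bile duct of the left and median lobes were clamped for 90 min, which leaves the rest of the liver perfused. In the IR (ischemia-reperfusion) group the same clamping for 90 min was followed by 120 min of reperfusion. The abdomen was closed for the reperfusion and no further anesthetic was given, so these livers were taken later than those of the other groups. No Sham group was kept to that later time. There was 1 library per group with no replicate, and it is not stated how many mice contributed RNA to each. No difference between libraries could therefore be set against a spread between mice, and no test was made.

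The respiratory chain sits in the inner mitochondrial membrane. Complexes I and II pass electrons from NADH and succinate to ubiquinone, complex III passes them to cytochrome c, and complex IV hands them to oxygen. Complexes I, III and IV pump protons as they do so, and complex V, the ATP synthase, uses the returning protons to make ATP. Most subunits are encoded by nuclear genes, and a small set by mitochondrial DNA. Hepatocytes are rich in mitochondria, and the chain stops for want of oxygen in ischemia and takes up oxygen again on reperfusion. The mitochondrially encoded subunits were not analysed here.

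Some facts of the libraries bear on every comparison. Xist, the RNA that coats the inactive X chromosome, had an FPKM of 18.9 in the Sham, 20.2 in the WI and 1.29 in the IR library. Eif2s3y, a Y-linked gene, was listed at 0 in the Sham and WI libraries and at 13.2 in the IR library. The libraries labelled Sham and WI thus went against their male label on these genes and the IR library did not, so that reperfusion and this difference between libraries cannot be told apart. Of 6 hepatocyte markers, 5 were past an FPKM of 1, while Alb was listed at 0 with a status of too much data. Their summed FPKM was 19156.6, 14223.5 and 19406.5 in the Sham, WI and IR libraries. Apoa1 (7630, 4239 and 8799) was highest in the IR library and Cyp2e1 (4782, 3718 and 3139) lowest there. The summed FPKM of 6 neutrophil markers was 24.3, 18.6 and 456 in the Sham, WI and IR libraries, with Mpo and Elane, genes of immature neutrophils, below 0.2 in each. Over 5 erythroid markers it was 751, 518 and 1976, and over 5 macrophage markers 245, 135 and 94.0. Over 5 endothelial markers it was 107, 82.1 and 63.3, and over 5 stellate cell markers 149, 105 and 109. Members of a list did not all follow its sum. Cd68 (18.5, 12.3 and 18.5) and Marco (20.9, 12.6 and 25.3) were higher in IR than in WI, unlike the macrophage markers Clec4f, Emr1 and Vsig4. So was Pecam1 (10.2, 6.52 and 7.74), unlike the other endothelial markers. Of the stellate cell markers, Lrat (4.96, 4.12 and 1.46) was lower in IR than in WI and Col1a1 (1.05, 1.05 and 2.69) higher. The part of these other cells in the differences between libraries was not tested, and in whole tissue fewer cells of a type and less RNA per cell cannot be told apart.

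The subunit genes were among the abundant mRNAs of the liver in every library. FPKM is per length, so levels may be compared between genes. The complexes differ in transcript length, however, and the part of length in the levels was not tested. Summed over the 80 genes it was 15055 in the Sham, 17299 in the WI and 22426 in the IR library, or 3.16%, 3.55% and 3.15% of the FPKM of all genes. The status of too much data was given to 1 gene in the Sham, 1 in the WI and 7 in the IR library. Such a gene can be listed at 0, as Alb was, so the totals of all genes may miss abundant mRNA. In the IR library the Mup genes (major urinary proteins, secreted by hepatocytes) took 12.6% of all FPKM, against 2.33% in the Sham and 2.11% in the WI library. Left out of the total, they put the share of the subunit genes at 3.24%, 3.62% and 3.60%.

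**Figure D1:**
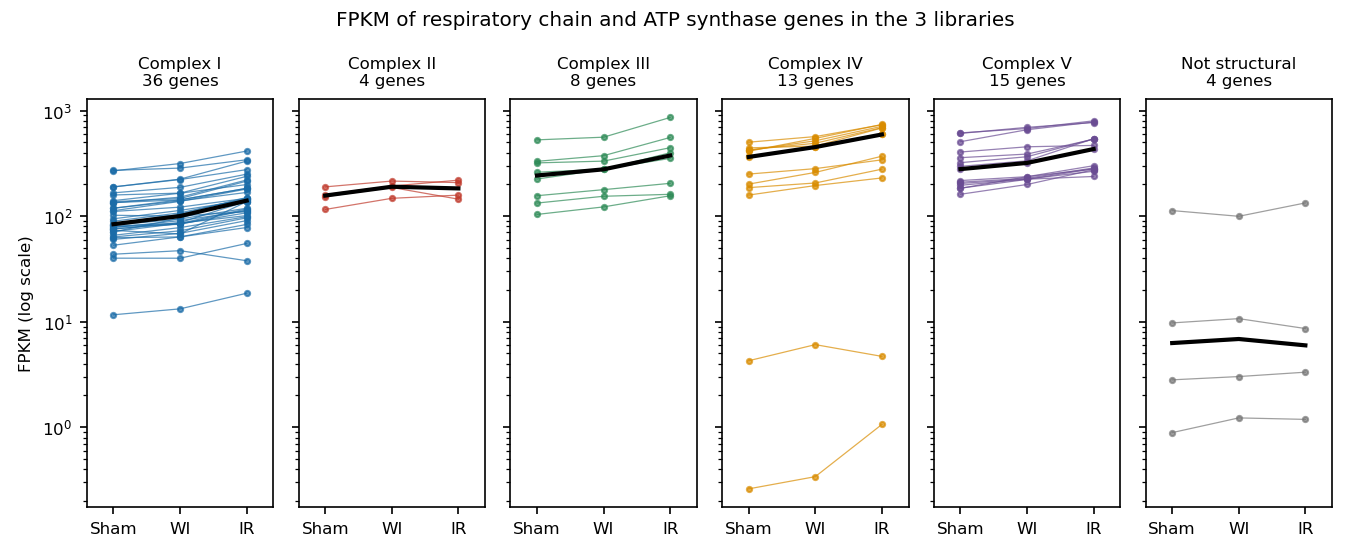
FPKM of each subunit gene (vertical axis; log scale) in the Sham, WI and IR libraries, in one panel per complex, with a line for each gene and a black bar at the median. Medians of complexes III, IV and V lie above those of complexes I and II in each library, and most lines climb from Sham to IR.

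The complexes differed in the level of their typical subunit mRNA. The median FPKM of complex I genes was 83.8 in the Sham library, 100.1 in the WI and 140.1 in the IR library, and that of complex II genes was 157, 190 and 183 in the same order. It was 242, 277 and 375 for complex III, 363, 451 and 593 for complex IV, and 279, 319 and 432 for complex V. Complex I, with the most genes, thus had the lowest median in each library. By share of the summed FPKM of the subunit genes, complex V led with 31.5%, 31.5% and 30.2%, and complex II had 4.10%, 4.29% and 3.25%. Complexes II and V had their lowest share in the IR library, while complexes I, III and IV had their highest there, with 24.8%, 25.6% and 26.6% for complex IV.

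Among complex I genes the level ran over more than an order of magnitude. Ndufa11, a small membrane-arm subunit, was lowest with an FPKM of 11.6, 13.2 and 18.6 in the Sham, WI and IR libraries. Ndufa6, an accessory subunit of the peripheral arm, was highest in the Sham library (271, 285 and 342), and Ndufb9, of the membrane arm, in the WI and IR libraries (268, 315 and 413). Outside complex I, the highest levels of the Sham library were those of Atp5g3, which encodes the c subunit of the ATP synthase rotor ring (614, 675 and 798), of Atp5b, its catalytic beta subunit (607, 693 and 769.5), and of Uqcrq, a small complex III subunit (527, 559 and 859). Ndufa4, now counted as a complex IV subunit, had 501, 566 and 733, and Atp5k, subunit e of ATP synthase, had 507, 658 and 778, which was above Uqcrq in the WI and above Atp5b in the IR library. Sdhd, a membrane anchor of succinate dehydrogenase, was the highest complex II gene of the Sham and WI libraries (189, 215 and 208), and Sdhb, its iron-sulfur subunit, of the IR library (159.9, 193 and 219).

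Because a few regulators are known to act on these genes together, their promoters were searched for short motifs, and windows of the members whose levels or differences are described here are shown. RefSeq promoters (GRCm38.p6, the assembly of mm10), of 250 bases before and 50 after each start, were found for 65 of the 80 genes, 70 promoters in all. The NRF1 motif, GCGC followed by any base and TGCGC on either strand, was in 18 of the 70 (25.7%), against 4.60% of all 32851 promoters of that length and 9.75% of the promoters of other genes past the FPKM filter. The ETS motif CCGGAAGT was in 7.14% of them, against 3.89% and 8.03%. The YY1 motif AAGATGGCG was in 10% of them (7 promoters), against 1.40% and 3.06%. A match is only a description of letters, with no evidence of binding here. For each complex the gene with the highest FPKM in the Sham library among those with the NRF1 motif is printed, and also Ndufs5, which had the largest difference between the IR and WI libraries. Capitals mark the motif in 30-base windows, read 5′ to 3′ on the strand of the gene.
Ndufa6 (complex I, chr15:82354249-82354278, minus strand): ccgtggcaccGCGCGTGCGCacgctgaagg
Sdhd (complex II, chr9:50603909-50603938, minus strand): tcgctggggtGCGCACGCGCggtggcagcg
Uqcrc1 (complex III, chr9:108936668-108936697, plus strand): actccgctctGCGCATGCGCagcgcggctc
Cox6a1 (complex IV, chr5:115349101-115349130, minus strand): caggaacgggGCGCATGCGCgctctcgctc
Atp5g3 (complex V, chr2:73911295-73911324, minus strand): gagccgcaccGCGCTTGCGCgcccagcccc
Ndufs5 (complex I, chr4:123718265-123718294, minus strand): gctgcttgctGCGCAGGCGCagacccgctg
The windows share the motif letters and little else. The difference between libraries of the 17 genes with the motif was close to that of the 48 without, with medians of 0.18 and 0.20 in WI against Sham, 0.34 and 0.42 in IR against WI, and 0.58 and 0.58 in IR against Sham, on the log2(FPKM + 1) scale used from here on.

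The WI library was compared with the Sham library, which had no clamping in place of 90 min. Nearly all subunit genes had a slightly higher level in the WI library: 76 of the 80 were higher and 4 lower, while 52.5% of all genes were higher. The median difference was 0.19, with an SD of 0.11 over the 80 genes, and that of all genes was 0.015. None of the 80 passed 1.5-fold in FPKM + 1, in either direction, while 3.14% of all genes passed it upward and 4.27% downward. At a ratio of 5 to 4, 7 of the 80 were higher, while 11.7% of all genes passed it upward. The pattern was thus one of many small differences of the same sign and not of large ones. The medians were 0.19 for complex I, 0.28 for complex II, 0.18 for complex III, 0.30 for complex IV and 0.19 for complex V.

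The core subunits of complex I followed this pattern. Ndufv1, the NADH-binding subunit, had an FPKM of 65.8 in the Sham, 77.8 in the WI and 98.7 in the IR library. Ndufs3 of the quinone module had 94.3, 113 and 142, and Ndufs8, which carries iron-sulfur clusters, had 82.0, 93.8 and 119. Ndufs7, which binds the last iron-sulfur cluster before ubiquinone, had 77.7, 90.6 and 112, but its deposited lower bound was 0 in each library, as was that of Atp5d, the delta subunit of ATP synthase. In these genes the order was Sham, WI, IR. Ndufv2, beside Ndufv1 in the electron input module, had 62.4, 63.5 and 78.0. Ndufs1, the largest iron-sulfur subunit, departed from the order with 43.6, 47.1 and 37.8, and was lowest in the IR library.

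The largest difference between WI and Sham was that of Ndufv3, an accessory subunit of the electron input module, at 0.42 (70.9 and 95.5). Next came 2 complex IV genes, Cox7a1 at 0.42 (4.27 and 6.06) and Cox6a1 at 0.40 (412 and 544). In the other complexes the largest differences were those of Sdhc, a membrane anchor of complex II, at 0.35 (116 and 147), Uqcr10, a small complex III subunit, at 0.30 (225 and 276), and Atp5k at 0.38 (507 and 658). Each of these was under 1.5-fold. The 4 genes that were lower were Cox7a2l at -0.18 (113 and 99.6), Ndufs5 at -0.11 (73.2 and 67.9), Ndufc2 at -0.031 (102 and 99.7) and Ndufs4 at -0.0014 (39.95 and 39.91). Cox7a2l encodes a factor for joining complexes into supercomplexes, and the other 3 encode accessory subunits of complex I. All 8 genes of complex III, all 13 of complex IV, all 15 of complex V and all 4 of complex II were higher in WI than in Sham. The smallest of these differences were 0.18 for Sdhd in complex II, 0.056 for Uqcrh in complex III, 0.056 for Cox6c in complex IV and 0.11 for Atp5l in complex V.

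**Figure D2:**
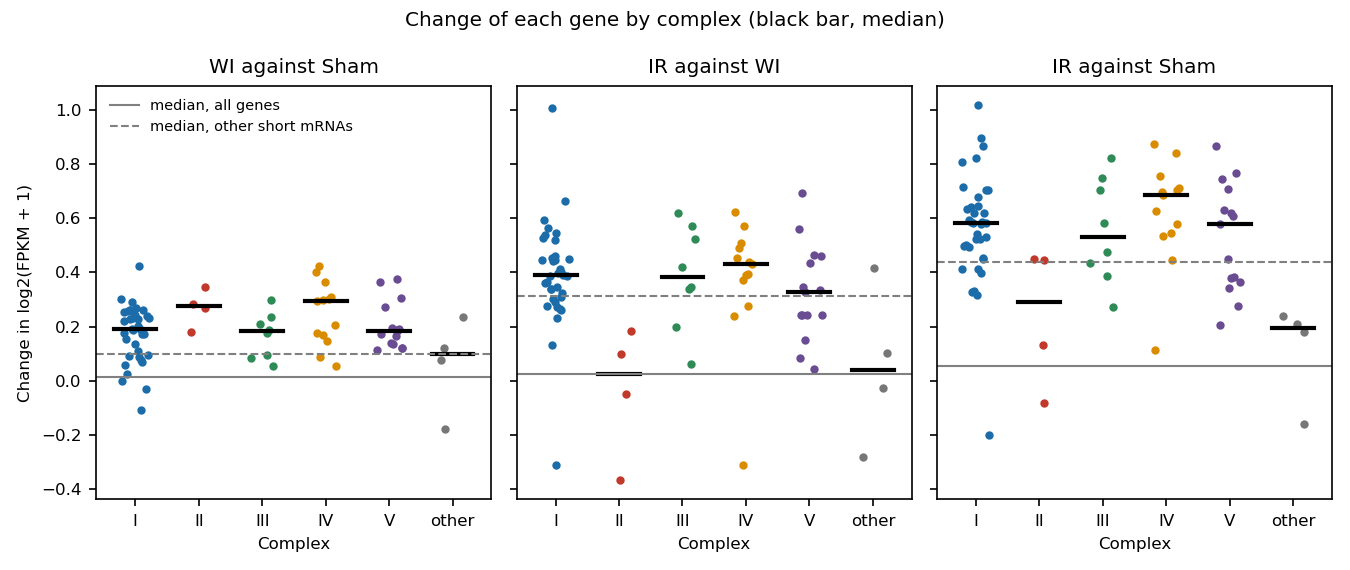
Difference in log2(FPKM + 1) of each subunit gene (vertical axis) by complex in the 3 comparisons, with a point per gene, a black bar at the median of each complex, and grey lines at the medians of all genes (solid) and of other short mRNAs (dashed). In IR against WI complex II has the lowest median, 0.026 against 0.33 to 0.43 for the other complexes, though single genes of other complexes lie lower than some of its 4. The genes that are not structural subunits have a median of 0.039.

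The IR library was then compared with the WI library, from which it differs by the reperfusion and also in Xist and Eif2s3y, as given above. The IR livers were also taken later, without further anesthetic, and this cannot be told apart from reperfusion. Here 74 of the 80 subunit genes were higher and 6 lower, while 52.4% of all genes were higher. The median was 0.37 with an SD of 0.23, against 0.027 over all genes. Of the 80, 6 passed 1.5-fold upward and none downward, while 12.4% of all genes passed upward and 7.40% downward. At a ratio of 5 to 4, 51 were higher, against 25.9% of all genes. Most subunit genes thus passed the lower ratio and few the higher. The medians were 0.39 for complex I, 0.38 for complex III, 0.43 for complex IV and 0.33 for complex V, against 0.026 for complex II. This comparison and the one before share the WI library, so that a high value there raises one difference and lowers the other.

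The 6 genes past 1.5-fold were spread over 4 complexes. Ndufs5, an accessory subunit of the complex I membrane arm that lies on chromosome 4 from 123712710 to 123718186 of mm10, had an FPKM of 73.2, 67.9 and 137, and its FPKM + 1 was 2.01-fold higher in IR than in WI. It was the one gene of the 80 past 2-fold in this comparison, which 5.78% of all genes passed upward. Its deposited bounds were 23.4 to 112 in the WI and 70.6 to 204 in the IR library, and so overlapped. Atp5e, the epsilon subunit in the central stalk of ATP synthase, had 296, 334 and 540.4 and a difference of 0.69. Ndufa12, an accessory subunit of complex I, had 75.2, 86.8 and 138 and a difference of 0.66. Ndufv3 had a difference of 0.59. The level of each of these 4 was highest in the IR library. Cox6b2, the testis isoform of a complex IV subunit, was at 0.261, 0.341 and 1.06, so that its difference of 0.62 comes from values near the filter. Uqcrq also had a difference of 0.62. Cox6b2 passed the filter only through the IR library, and with an FPKM of at least 1 in all 3 libraries 5 genes were past 1.5-fold.

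Of the 6 genes lower in IR than in WI, Sdha had the largest difference, -0.37, with an FPKM of 153, 187 and 145. Sdha encodes the flavoprotein that oxidizes succinate, a step of the tricarboxylic acid cycle, and is on chromosome 13 from 74322255 to 74350240 of mm10. Its bounds were 77.8 to 296 in the WI and 63.7 to 226 in the IR library. The next were Cox7a1 at -0.31, Ndufs1 at -0.31 and Atp5sl at -0.28 (9.74, 10.7 and 8.61), a gene known for a role in complex I assembly. Sdhd at -0.048 and Ndufa4l2 at -0.026 were lower by little. Sdha was the only one of the 80 past a ratio of 5 to 4 downward, which 20.9% of all genes passed. Complex II therefore had 2 of its 4 genes lower, Sdha and Sdhd, while Sdhb (0.18) and Sdhc (0.099, from 147 to 158) were higher.

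The catalytic and core subunits of complexes III and V named here have coding sequences of 825 to 1662 bases. In complex III, Uqcrc2 (133, 154 and 161) and Uqcrc1 (104, 122 and 156), the core proteins, differed by 0.062 and 0.35 in IR against WI, and Uqcrfs1, the Rieske iron-sulfur protein (156, 178 and 204), by 0.20. The 5 small subunits, had a median of 0.52, with Uqcrb (260.3, 278 and 352) lowest at 0.34, just under Uqcrc1. In complex V, Atp5a1, the alpha subunit (404.5, 453 and 467), had the smallest difference, 0.044, and Atp5b had 0.15 and Atp5c1, the gamma subunit (204, 224.5 and 266), 0.24. The small central-stalk genes Atp5d and Atp5e had 0.46 and 0.69. Membrane accessory subunits Atp5j2, Atp5k and Atp5l had a median of 0.46, with Atp5k at 0.24, so that roles overlapped. In complex I the membrane-arm genes had a median of 0.44, those of the electron input module 0.39 and those of the quinone module 0.31. Cox4i1 (424.5, 489.6 and 688), Cox5a (250.1, 282 and 341) and Cox5b (201, 259 and 369), the nuclear subunits closest to the catalytic core of complex IV, differed by 0.49, 0.28 and 0.51.

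The IR library was last compared with the Sham library, a comparison that spans both stages and the same difference in Xist and Eif2s3y. It also spans the later time at which the IR livers were taken. The median difference was 0.58 over the subunit genes and 0.055 over all genes, with 77 higher, against 54.4% of all genes, and 3 lower (Ndufs1 at -0.20, Atp5sl at -0.16 and Sdha at -0.082). Of the 80, 34 passed 1.5-fold upward and none downward, while 14.3% of all genes passed upward and 9.49% downward. At a ratio of 5 to 4, 68 were higher, against 29.6% of all genes. The 34 were 16 of 36 in complex I, 3 of 8 in complex III, 8 of 13 in complex IV and 7 of 15 in complex V, with none of 4 in complex II. Among the 8 was Cox6b2 (0.261, 0.341 and 1.06), which passed the filter only through the IR library. With an FPKM of at least 1 in all 3 libraries, 33 passed 1.5-fold upward and the complex IV median was 0.655. The medians were 0.58 for complex I, 0.29 for complex II, 0.53 for complex III, 0.68 for complex IV and 0.58 for complex V. Only Ndufv3, on chromosome 17 from 31520115 to 31531326 of mm10, passed 2-fold, with an FPKM of 70.9, 95.5 and 145 and a difference of 1.02, while 5.35% of all genes passed 2-fold upward.

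After Ndufv3 the largest differences were those of Ndufs5 at 0.90 and Cox5b at 0.87. The largest of the other complexes were those of Atp5e at 0.87, Uqcr10 at 0.82 (225, 276 and 398) and Sdhb at 0.45. At the other end were Cox7a1 at 0.11 in complex IV, Atp5a1 at 0.21 in complex V and Uqcrc2 at 0.27 in complex III. The deposited 95% bounds, which come from a model of the fragment counts and not from mice, did not separate any of the 80 genes between libraries in any of the 3 comparisons. They were apart for 0.676% of all genes in WI against Sham, 3.61% in IR against WI and 3.82% in IR against Sham.

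The sign of the differences to the IR library held under one rescaling and not under another. Rescaled by the median ratio over genes, the medians of the subunit genes were 0.32 in IR against WI and 0.49 in IR against Sham. FPKM summed over all genes was 475754 in the Sham, 487912 in the WI and 712423 in the IR library. These sums may miss the genes with a status of too much data, 1 in the Sham, 1 in the WI and 7 in the IR library. Brought to a common sum, the median of all genes moved to -0.45 in IR against WI and to -0.46 in IR against Sham, and the median of the subunit genes to -0.18 (11 higher and 69 lower) and -0.0031 (39 higher and 41 lower). Relative to the median of other genes, the subunit genes were 0.28 and 0.46 higher on that scale, against 0.34 and 0.53 as deposited. A factor shared by all genes of a library leaves such a distance nearly as it was, so this is no separate support. For WI against Sham the median was 0.15 after rescaling to the common sum, with 75 higher and 5 lower. Relative to other genes it was 0.17, against 0.18 as deposited, with the same limit from a shared factor. Complex II was lowest in both comparisons with the IR library on either scale, but such a factor could hardly change the order of the complexes. The number of genes called higher was not the same on the common-sum scale.

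Length was examined because short mRNAs in general had a higher FPKM in the IR library. The subunit genes are short: their median transcript was 866 bases long, against 2639 over all genes with a length, and 48 of the 80 (60%) were at most 1000 bases, against 7.99% of the other genes. Complex IV had the shortest (median of 566 bases, 12 of 13 up to 1000 bases) and complex II the longest (median of 2094 bases, none up to 1000). Over the 830 other mRNAs of at most 1000 bases the median difference was 0.098 in WI against Sham, 0.31 in IR against WI and 0.44 in IR against Sham. The 48 short subunit genes had 0.19, 0.39 and 0.60. They were thus above other short mRNAs by 0.091, 0.081 and 0.16. The size of this distance depends on the length used: with the limit set on coding length in place of transcript length it was 0.12, 0.24 and 0.34, and with a transcript limit of 750 bases it was 0.083, 0.021 and 0.10.

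Level also set the short mRNAs apart. Over the 306 other short mRNAs with an FPKM of at least 50 in some library the medians were 0.087, 0.44 and 0.57, and over the 45 short subunit genes that reach this level they were 0.19, 0.40 and 0.61. In IR against WI the abundant short subunit genes were then 0.046 below other abundant short mRNAs, and in IR against Sham 0.038 above. In WI against Sham they were 0.098 above.

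**Figure D3:**
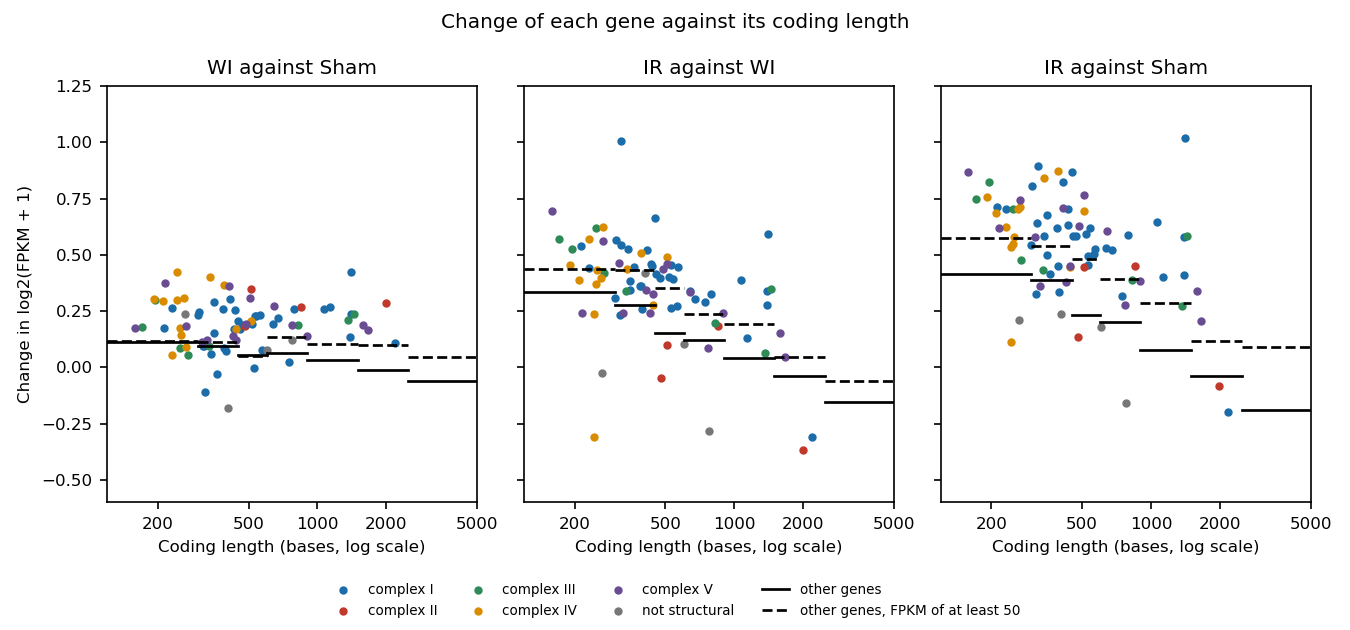
Difference in log2(FPKM + 1) of each subunit gene against the length of its coding sequence in bases (log scale) in the 3 comparisons, with the median of other genes in each length class as solid lines and of other genes with an FPKM of at least 50 as dashed lines. In IR against WI the points follow the dashed steps down from short to long genes, while in WI against Sham most lie above both lines.

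Set beside the other genes of its own transcript length class, 65 of the 80 genes were above the median of the class in WI against Sham, 56 in IR against WI and 60 in IR against Sham. Among genes with an FPKM of at least 50, of which 73 were subunit genes, these counts were 61 of 73, 33 of 73 and 45 of 73. The median distance to the class was 0.11, 0.070 and 0.16 over the 80 genes, and 0.098, -0.020 and 0.055 over the 73. By coding length class the medians were 0.13, 0.15 and 0.27 over the 80 genes, and 0.11, 0.015 and 0.10 over the 73, with 59, 41 and 49 of the 73 above their class. By either length, the distance of the abundant subunit genes to their class was near 0 in IR against WI. All 15 complex V genes and all 4 complex II genes lay above their class in WI against Sham in both settings. In IR against WI the median distance to abundant genes of the same transcript length class was 0.038 for complex I, -0.18 for complex II, -0.012 for complex III, -0.031 for complex IV and -0.054 for complex V. Complex II was lowest here too, with 3 of its 4 genes below their class. By coding length class these were 0.057, -0.33, 0.033, -0.0062 and 0.0047, with 24 of 34 complex I genes above and all 4 complex II genes below. Across the 80 genes, which all come from the same libraries, Spearman's rho between coding length and the difference was 0.018 in WI against Sham, -0.48 in IR against WI and -0.43 in IR against Sham. Over the other 10384 genes it was -0.16, -0.24 and -0.31.

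Other gene families were set beside the subunit genes, although fewer of their members are short in some: 59 of 81 cytosolic ribosomal, 28 of 76 mitochondrial ribosomal and 5 of 37 proteasome genes. The 81 cytosolic ribosomal protein genes had medians of 0.027 in WI against Sham, 0.53 in IR against WI and 0.57 in IR against Sham. For the 76 mitochondrial ribosomal protein genes, which make the machine that translates the mitochondrially encoded subunits, these were 0.15, 0.27 and 0.41, and for 37 proteasome subunit genes they were 0.19, 0.35 and 0.52. In IR against Sham the subunit genes and the cytosolic ribosomal genes had nearly the same median (0.58 and 0.57), but the ribosomal genes had almost none of it in the WI library. The proteasome genes had medians close to those of the subunit genes in all 3 comparisons.

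**Figure D4:**
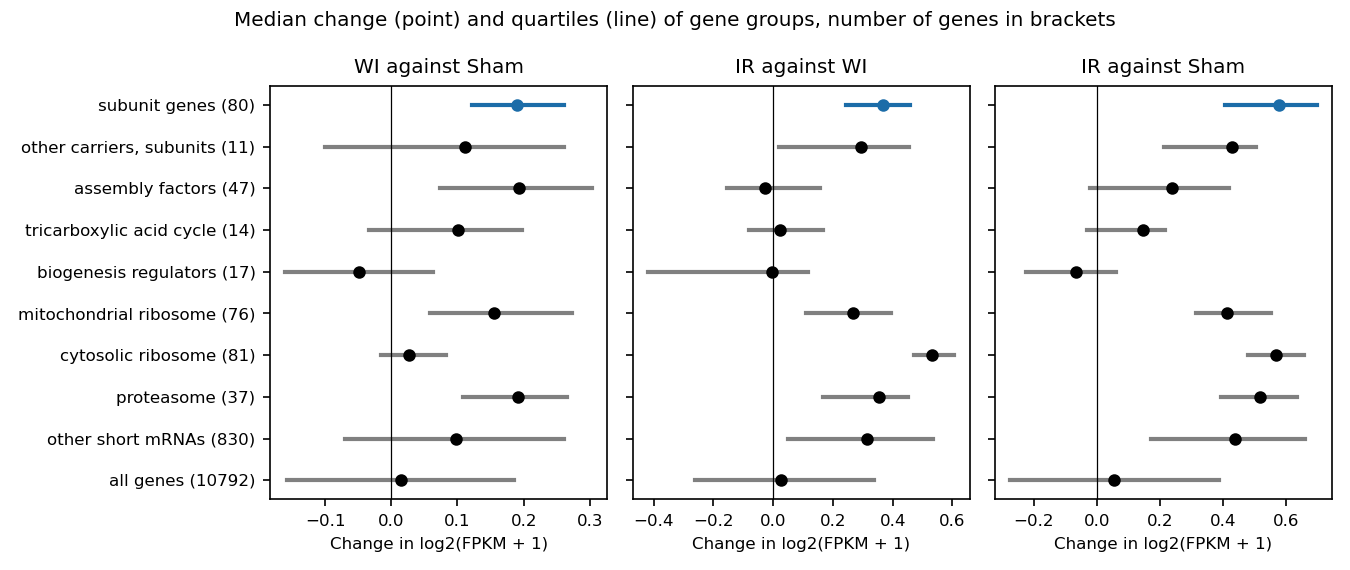
Median difference in log2(FPKM + 1), with the quartiles as lines, for the subunit genes, other short mRNAs and the gene families and pathway lists in the 3 comparisons. The subunit genes lie at 0.19, 0.37 and 0.58, and the cytosolic ribosomal genes at 0.027, 0.53 and 0.57.

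Assembly factors had the median of the subunit genes in the WI comparison and not in the IR comparison. The lists in this paragraph and the next were not set beside other genes of their own length. In IR against WI the median of other genes went from 0.42 at up to 500 bases to -0.21 above 5000 bases. Transcripts of the tricarboxylic acid cycle genes were 1331 to 4168 bases long. The part of length in the contrast with the subunit genes was not tested. Of 47 assembly factor genes past the filter, which help build the complexes without staying in them, 43 were higher in WI than in Sham with a median of 0.19, and 22 were higher in IR than in WI with a median of -0.026, while 52.5% and 52.4% of all genes were higher. Past 1.5-fold in WI against Sham was 1 gene upward, Pet117 (0.303, 1.16 and 0.692), while 3.14% of all genes passed it upward. Pet117 passed the filter only through the WI library. Its deposited bounds overlapped, at 0 to 2.93 in the Sham and 0 to 14.1 in the WI library. In IR against WI 3 passed upward, Sco2, Cox18 and Cox19, and 1 downward, Lrpprc, which is below the share of all genes in either direction (12.4% and 7.40%). Sco2, a copper chaperone for complex IV, had an FPKM of 24.6, 18.5 and 50.5, and Lrpprc, which stabilizes mitochondrial mRNAs, had 22.1, 24.3 and 15.5. The 14 genes of the tricarboxylic acid cycle had medians of 0.10, 0.022 and 0.15. None passed 1.5-fold in WI against Sham, while 3.14% of all genes passed upward and 4.27% downward. In IR against WI 1 passed upward, Fh1, or fumarase (139, 119 and 202), no more than the 12.4% of all genes.

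Among 11 electron carriers and subunits outside the naming rule the medians were 0.11, 0.30 and 0.43. Cyc1, the cytochrome c1 subunit of complex III, had an FPKM of 170, 204 and 251 and followed the order of the subunit genes. Cycs, cytochrome c itself, had 49.2, 48.6 and 69.4. Of 17 regulators of mitochondrial biogenesis, 7 were higher in WI than in Sham and 8 higher in IR than in WI, with medians of -0.049 and -0.0039. Past 1.5-fold in IR against WI were 2 upward, Pprc1 (1.56, 1.29 and 5.07) and Gabpb1 (2.23, 2.43 and 5.55), and 1 downward, Gabpb2 (2.84, 2.72 and 1.45), close to the shares of all genes (12.4% and 7.40%). Ppargc1a, the PGC-1alpha coactivator, had 4.58, 3.27 and 2.02 and was lowest in the IR library, where most subunit genes had their highest deposited levels. Its transcript, of 6464 bases, is far longer than those of the subunit genes. Nrf1, whose motif is shown above, had 2.60, 2.16 and 2.74.

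Isoforms of other tissues were at or near 0, with the exception of Cox7a1. Of the isoforms named for heart and muscle, Cox6a2 (0.0743, 0.131 and 0.179) and Cox8b (0.167, then 0 and 0) were below an FPKM of 1 in each library, beside Cox6a1 (412, 544 and 738) and Cox8a (368.5, 452 and 593), their widely expressed partners. Muscle markers were near 0, with a summed FPKM over 7 genes of 0.0528, 0 and 0.0465. Cox4i2, the isoform of lung and low oxygen, had 0.309, 0.109 and 0.0768, with its highest value in the Sham library. Cox7b2 and Cox8c were listed at 0 in every library. These 5 symbols are the ones left out by the filter. Just inside it were Cox6b2, with its partner Cox6b1 at 363, 451 and 593, and Ndufa4l2, a hypoxia-induced relative of Ndufa4, at 0.890, 1.23 and 1.19.

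**Figure D5:**
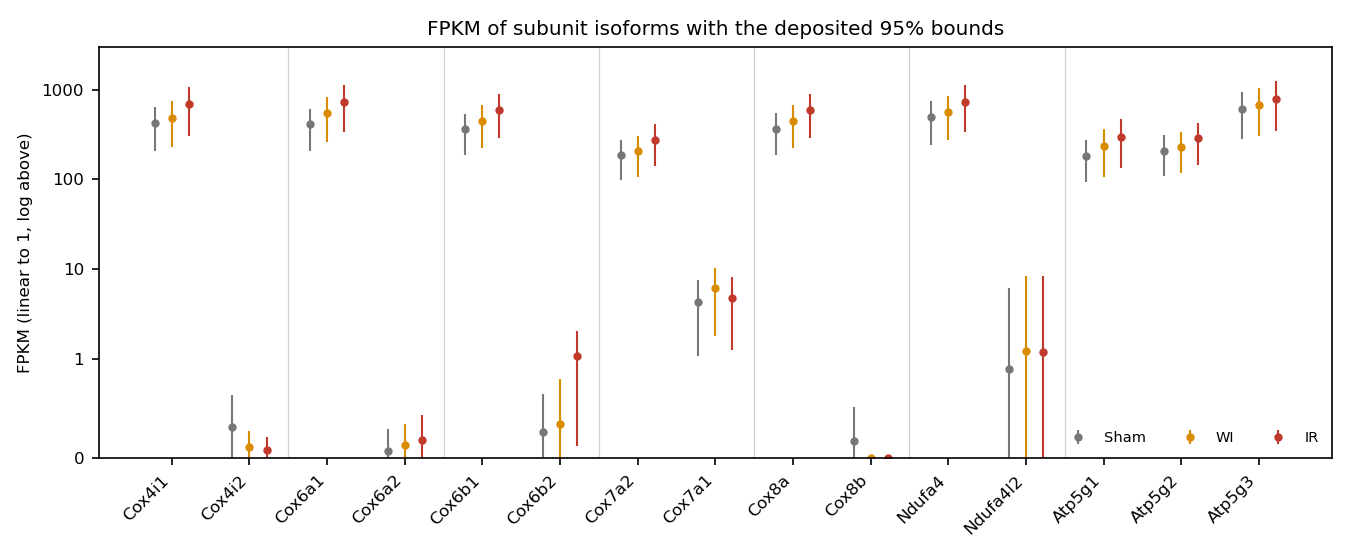
FPKM (log scale, linear near 0) of the isoform pairs and of the 3 genes for subunit c of ATP synthase in the Sham, WI and IR libraries, with a point per library and the deposited 95% bounds as lines. Each widely expressed isoform lies above 150 in all libraries and its partner below 7.

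Cox7a1 was the one muscle isoform clearly expressed, at 4.27, 6.06 and 4.70, beside Cox7a2 at 186, 206 and 278. It was highest in the WI library, whereas Cox7a2 was highest in the IR library. The 3 genes Atp5g1, Atp5g2 and Atp5g3 encode the same mature subunit c with different leader peptides. Atp5g3 was the highest in each library, while Atp5g1 (183, 236 and 300.1) was below Atp5g2 (209, 228 and 286) in the Sham library and above it in the others. Their differences in IR against Sham were 0.71, 0.45 and 0.38, so that the gene with the lowest level in the Sham library had the largest. Of the 4 symbols that are not structural subunits, Atp5s, or factor B, had 2.81, 3.02 and 3.33, and Cox7a2l had 113, 99.6 and 133.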

How the data were processed

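Libraries were made from total liver RNA, and the way mRNA was selected was not given in the sources used here. According to the submitters' processing notes, reads were mapped to mm10 with TopHat2 2.0.9, and the authors computed the deposited FPKM per gene, with 95% bounds and a status, with Cufflinks 2.0.2 (Cuffdiff). The files hold no counts, so that the depth per gene is unknown. The authors report a lower share of uniquely aligned read pairs for the IR library than for the Sham and WI libraries. Its part in the differences was not tested. Members and gene lists were chosen with earlier results of these data known.

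A gene was kept if its FPKM reached 1 in some library. Differences are of log2(FPKM + 1), which understates those of low genes, and a gene was called past 1.5-fold in FPKM + 1. Alternatives were a ratio of 5 to 4 and 2-fold, other pseudocounts, filters, scalings and length limits. Named were the core subunits, isoform pairs, extremes of level and difference per complex, and genes past 2-fold. The values of 1 core subunit are not reported here. Pathway genes outside the rule, and distances to length classes by complex, were chosen after values were seen.

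Transcript and coding lengths came from GENCODE M1 (an older build) by symbol, for 10464 of 10792 genes (97.0%) and all 80 members. FPKM of overlapping genes may share fragments. Python 3.11.15, pandas 2.3.3 and numpy 2.4.6 were used. The difference and the 1.5-fold call were tested on simulated data, and the other steps were not.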

Additional observations from a re-analysis of the deposited data

How the results depend on the processing

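Over 19 alternatives (2 of them added after seeing the data), 311 values of 42 results kept their sign and moved by less than the spread among the genes, within 1.5 times for a count or under 1 percentage point for a share, 15 moved by more and 13 changed sign. Part of the 311 could not change, so their number is no measure of stability. A scale factor per library leaves the shares as they were. All subunit genes had a status of OK, so the setting on status left their own values unchanged. Leaving out symbols that are not structural subunits does not touch the medians by complex. Rescaled to a common sum (TPM), the IR against WI median was -0.18 for all subunit genes, -0.15 for complex I, -0.52 for II, -0.16 for III, -0.11 for IV and -0.22 for V, with 0 genes past 1.5-fold upward and 5 downward. In IR against Sham it was -0.0031, and by complex 0.0045, -0.29, -0.050, 0.10 and -0.0040, with 1 gene upward and 3 downward. This follows from the larger sum of FPKM in the IR library. Rescaled by the median ratio, the complex II median in IR against WI was -0.019. With no filter, the complex IV median in WI against Sham was 0.17, and the distance to other short mRNAs, which then include genes at 0, was 0.39 in IR against WI and 0.58 in IR against Sham. At a ratio of 5 to 4, 7 genes were higher in WI against Sham, 51 higher and 1 lower in IR against WI, and 68 higher in IR against Sham. At 2-fold it was 1 and 1 in the comparisons with IR. With the setting added after seeing the data, an FPKM of at least 50, the distance to other short mRNAs in IR against WI was -0.046, and with coding length up to 450 bases it was -0.0042. The cause was not tested. Within the spread, that distance also went from 0.021 (limit of 750 bases) to 0.24 (coding length).

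No paired analysis was possible because each group has 1 library, and leaving out a library was not possible either. The files hold no counts, so the deposited bounds are the sole measure of precision, and they rest on 1 library a group.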
